A study of Bos grunniens with 18 samples.

Results

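The smooth muscle contractile genes comprise 10 genes, ACTA2, MYH11, TAGLN, CNN1, DES, CALD1, MYL9, TPM2, SMTN and LMOD1, taken by symbol from the 22183 genes of the count table. All 10 were found under 1 identifier each, and all 10 were among the 16742 genes tested. The tissue was testis of healthy male yaks (Bos grunniens) of 1 cooperative, removed by castration under anaesthesia, and the labels name no experimental treatment. Y6M denotes the 3 animals aged 6 months, Y18M the 3 aged 18 months and Y4Y the 3 aged 4 years. A replicate number names a different animal at each age, and the ages come from the titles. The stage names in another label field run in a different order (infancy for Y4Y) and were not used.

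Smooth muscle cells shorten when myosin II pulls on actin filaments after calcium and calmodulin switch on the kinase that phosphorylates the regulatory light chain. Calponin, caldesmon and tropomyosin sit along the actin filament and adjust this interaction, and desmin filaments tie the contractile lattice together. In the testis these genes are known from the peritubular myoid cells, the flat contractile cells that wrap each seminiferous tubule, and from the smooth muscle of arterial walls. Myofibroblasts and other mesenchymal cells can express several of them, CALD1, MYL9 and TPM2 most broadly.

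Gene libraries held 22.95 to 33.12 M estimated counts. Of the markers of other cell types, all 10 meiotic and haploid germ cell genes were higher at 18 months and at 4 years than at 6 months, with median log2 fold changes of 7.23 and 8.03. All 8 fibroblast genes (medians -2.75 and -4.65) and all 5 Leydig cell genes (-3.15 and -4.27) were lower at both ages. Of 6 Sertoli cell genes, 5 were lower and 1 was higher at both ages (-1.44 and -2.50). Of 8 endothelial genes, 6 were lower and 1 was higher at 18 months and 7 were lower and 1 was higher at 4 years (-1.51 and -1.63). Over all genes tested, 59.9% differed from 6 months at 18 months and 73.9% at 4 years (adjusted p under 0.05, edgeR). The 18-month libraries stood far apart from each other. In CPM, the counts relative to the library total after TMM scaling, germ cell markers summed to 3033, 630.2 and 1673 CPM in Y18M replicates 1, 2 and 3, against 13.3 to 23.6 at 6 months and 3156 to 3700 at 4 years. Fibroblast markers ran in the opposite order, at 262.9, 983.6 and 524.4 CPM, against 2842 to 3742 at 6 months and 229.7 to 254.3 at 4 years. The part of these differences in the results below was not tested.

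The first question was how each contractile gene differed between 6 and 18 months. ACTA2, MYH11 and TPM2 were higher at 18 months, DES and CALD1 were lower, and the other 5 did not pass the test (adjusted p under 0.05, edgeR quasi-likelihood F-test). These 5 calls of 10 compare with 59.9% of all genes tested (32.7% higher and 27.1% lower), a share close to the members' own. The median log2 fold change of the 10 was 0.03, against 0.02 over all genes, with 5 fitted values above 0 and 5 below. Scaling by library size alone moved the median of all genes to 0.43 and the share of higher among the called genes from 54.7% to 72.6%, a shift that applies to every value of this comparison. The 5 calls and their directions were the same under it. In bulk tissue, fewer cells of a type and less RNA per cell cannot be told apart.

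**Figure D1:**
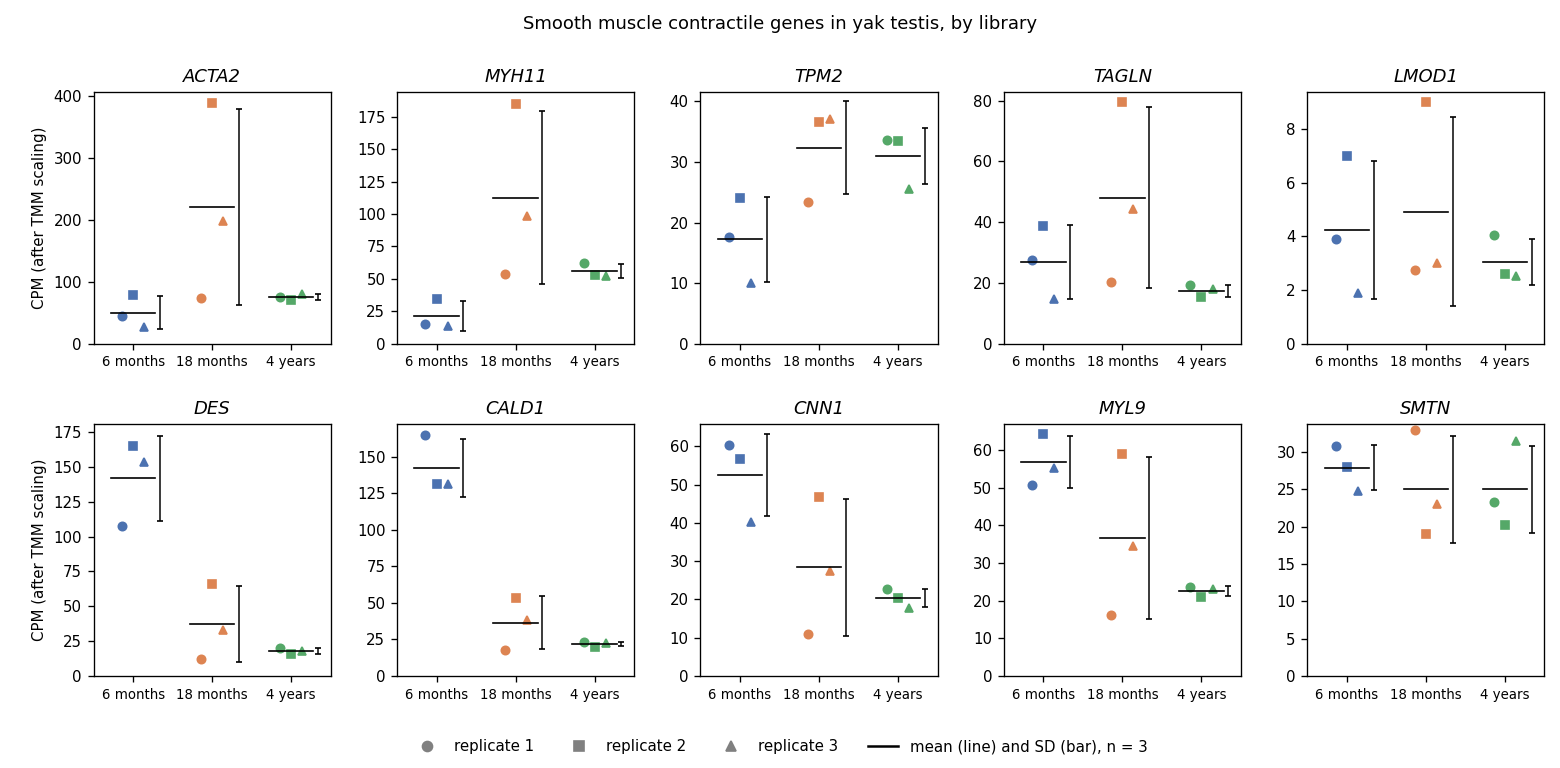
CPM after TMM scaling of the 10 contractile genes in each of the 9 libraries; symbols mark the replicate, black lines the mean and bars the SD of 3 libraries per age. MYH11 lay at 13.94 to 34.81 at 6 months and at 52.2 or more at both later ages, whereas CALD1 lay at 131.2 to 165.1 at 6 months and at or below 53.57 at the later ages; at 18 months the 3 libraries spread widely for most genes.

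ACTA2 (ENSBTAG00000014614) encodes smooth muscle alpha-actin, the thin-filament actin used to recognise peritubular myoid cells. It stood at 44.57, 79.55 and 27.29 CPM in Y6M replicates 1, 2 and 3, at 73.74, 388.6 and 199.0 in the Y18M replicates, and at 76.35, 70.99 and 80.93 in the Y4Y replicates. The 18-month libraries 2 and 3 were above all others, and library 1 fell within the 6-month range. The log2 fold change was 2.13 ± 0.57 at 18 months (± SE, as for every fold change here; adjusted p = 0.0111, edgeR, n = 3 per age) and stayed between 1.55 and 2.62 when any 1 library was left out (adjusted p 0.00122 to 0.042).

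MYH11 (ENSBTAG00000015988), the smooth muscle myosin heavy chain, is the most restricted marker of the group. Its levels were 15.55, 34.81 and 13.94 CPM at 6 months, 54.01, 185.1 and 98.33 at 18 months and 61.92, 53.16 and 52.2 at 4 years. No library of either later age was as low as any 6-month library. The rise was 2.39 ± 0.49 on the log2 scale at 18 months (adjusted p = 0.00292), 5.25-fold, and 1.38 ± 0.47 at 4 years (0.0255), 2.60-fold. The 4-year call was lost without Y6M replicate 1 (1.20, adjusted p = 0.0855), Y6M replicate 3 (1.15, 0.0857) or Y4Y replicate 1 (1.303, 0.0638), and the 18-month call held without each library in turn.

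TPM2 (ENSBTAG00000011424), beta-tropomyosin, had 17.66, 24.1 and 10.06 CPM at 6 months, 23.47, 36.53 and 37.02 at 18 months and 33.7, 33.52 and 25.61 at 4 years. Y18M replicate 1 lay just below the highest 6-month library, and the 4-year libraries all lay above the 6-month ones. TPM2 rose by 0.90 ± 0.32 at 18 months (adjusted p = 0.0373) and by 0.84 ± 0.32 at 4 years (0.0404). Both calls were marginal. The 18-month call was lost without Y6M replicate 1 (0.92, adjusted p = 0.084) or 3 (0.64, 0.0929), Y18M replicate 3 (0.80, 0.109), or Y4Y replicate 1 (0.91, 0.0546) or 2 (0.91, 0.0549). The 4-year call was lost without the same 5 libraries, at log2 fold changes of 0.86, 0.57, 0.85, 0.78 and 0.79 and adjusted p of 0.0848, 0.103, 0.0537, 0.101 and 0.1.

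DES (ENSBTAG00000005353) encodes desmin, the muscle intermediate filament. It stood at 107.4, 164.9 and 153.9 CPM at 6 months, at 11.97, 66.3 and 32.84 at 18 months and at 19.81, 15.86 and 17.81 at 4 years. Every later library was below every 6-month one. DES fell by 1.94 ± 0.51 on the log2 scale at 18 months (adjusted p = 0.00982) and by 2.99 ± 0.53 at 4 years (0.000917), the largest difference of the 10 genes, to 0.126 of the 6-month level. Without Y18M replicate 2, the highest of its age, the 18-month value was -2.55 (adjusted p = 0.00032), and the 4-year value stayed between -3.16 and -2.87 without any 1 library.

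CALD1 (ENSBTAG00000013953), caldesmon, an actin-binding brake on myosin with a smooth muscle and a non-muscle splice form, had 165.1, 131.2 and 131.2 CPM at 6 months. It had 17.77, 53.57 and 38.0 at 18 months and 23.01, 19.96 and 22.2 at 4 years, again with no overlap of the 6-month libraries with either later age. It fell by 1.97 ± 0.35 at 18 months (adjusted p = 0.00143) and by 2.71 ± 0.36 at 4 years (0.000211). The splice forms share this gene-level count and were not separated.

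CNN1 (ENSBTAG00000011207) encodes calponin, a thin-filament protein that slows the myosin ATPase. Its levels were 60.28, 56.71 and 40.18 CPM at 6 months, 11.04, 46.66 and 27.33 at 18 months and 22.57, 20.43 and 17.85 at 4 years. The 6- and 18-month ranges overlapped through Y18M replicate 2, and the 4-year libraries lay below all 6-month ones. The log2 fold change at 18 months was -0.89 ± 0.43 (adjusted p = 0.105), and it was -1.33 (0.00743) without Y18M replicate 2. CNN1 fell by 1.37 ± 0.44 at 4 years (0.0187), a call lost without Y6M replicate 1 (-1.25, 0.0542), Y4Y replicate 2 (-1.37, 0.0528) or Y4Y replicate 3 (-1.28, 0.0635), and with scaling by library size alone (-1.09, 0.0608).

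MYL9 (ENSBTAG00000011473) encodes the regulatory myosin light chain that is phosphorylated to start contraction. Levels were 50.78, 64.42 and 55.22 CPM at 6 months, 16.18, 59.08 and 34.59 at 18 months and 23.52, 21.05 and 23.03 at 4 years. Only the 4-year libraries were clear of the 6-month range. The 18-month log2 fold change was -0.63 ± 0.38 (adjusted p = 0.179), or -1.04 (0.00903) without Y18M replicate 2, and MYL9 fell by 1.33 ± 0.39 at 4 years (0.0121), which held without each library in turn.

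TAGLN (ENSBTAG00000007196), the actin-bundling protein transgelin or SM22, had 27.5, 38.63 and 14.58 CPM at 6 months, 20.16, 79.53 and 44.45 at 18 months and 19.27, 15.36 and 17.85 at 4 years. Its ages overlapped except that all 4-year libraries were below all 18-month ones. The log2 fold change was 0.84 ± 0.48 at 18 months (adjusted p = 0.162) and -0.62 ± 0.48 at 4 years (0.267), both against 6 months, and the 18-month value passed the test without Y18M replicate 1 (1.21, 0.0264). SMTN (ENSBTAG00000003100), smoothelin, an actin-associated protein of contractile smooth muscle, ranged from 19.02 to 32.99 CPM over all 9 libraries. Its log2 fold change from 6 months was -0.16 ± 0.25 at both later ages (adjusted p = 0.609 and 0.586). LMOD1 (ENSBTAG00000021576), the leiomodin that nucleates actin filaments, was the least counted, at 41 to 263 counts and 1.87 to 9.0 CPM, with log2 fold changes of 0.21 ± 0.59 (0.771) and -0.47 ± 0.59 (0.486). A test that these 2 genes missed does not show that they were equal between ages.

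At 4 years against 6 months, 2 of the 10 genes were higher (MYH11 and TPM2), 4 were lower (DES, CALD1, CNN1 and MYL9) and 4 did not pass. The background was 73.9% of all genes called, 36.7% higher and 37.2% lower. At 18 months the libraries did not overlap those of 6 months for 3 of the 10, 1 higher (MYH11) and 2 lower (DES and CALD1), against 65.1% of all genes (33.3% higher and 31.8% lower). At 4 years they did not overlap for the 6 called genes, against 83% of all genes (41% higher and 42% lower). The median log2 fold change at 4 years was -0.55, against -0.06 over all genes. Both comparisons use the same 6-month libraries. Counts of 5 and 6 called members fell to 4 and 3 without Y6M replicate 1, which removed both 4-year rises.

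**Figure D2:**
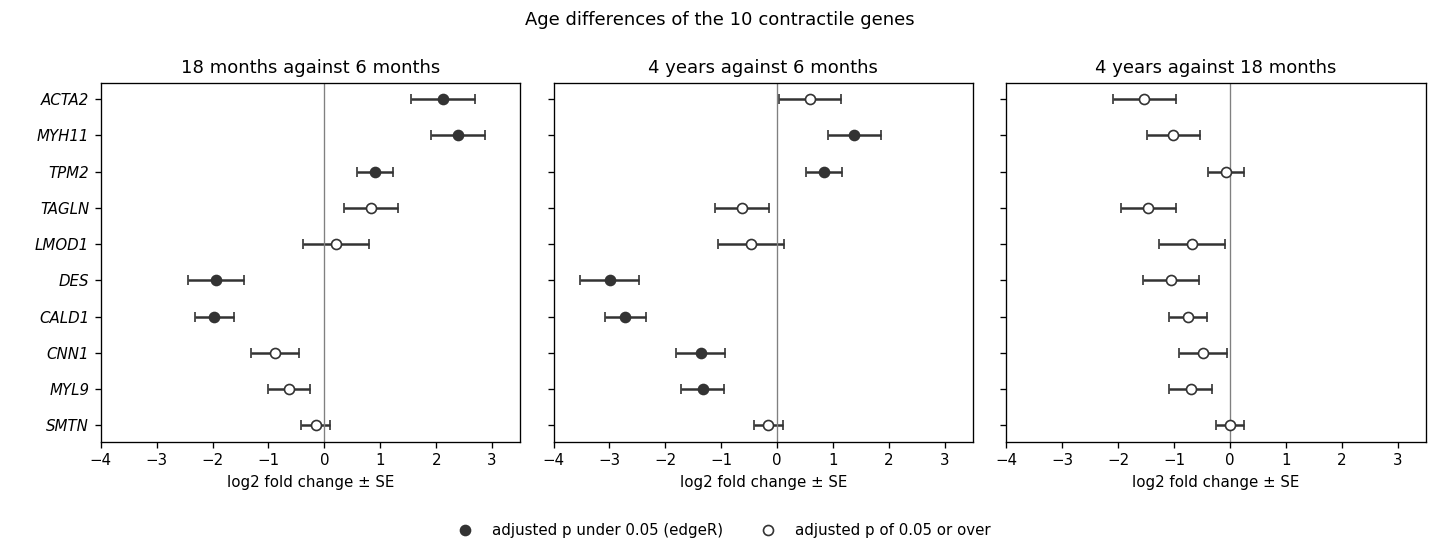
Log2 fold changes (edgeR, bars ± SE, 3 libraries per age) of the 10 contractile genes in 3 comparisons; filled points have an adjusted p under 0.05. MYH11 (2.39 and 1.38) and TPM2 lie right of 0 against 6 months and DES and CALD1 left of it, while no gene is filled at 4 years against 18 months.

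ACTA2 at 4 years did not pass against 6 months (log2 0.59 ± 0.55, adjusted p = 0.35, ranges overlapping). All 10 fitted values of 4 years against 18 months were below 0, with a median of -0.72 against -0.03 over all genes, and none passed the test, as for all but 1 of the 16742 genes (0.00597%). SMTN (-3e-04) and TPM2 (-0.06) were nearest 0, and with RLE factors they were above it (0.059 and 0.021). TAGLN was the 1 gene whose libraries of these ages did not overlap, against 25.4% of all genes (11.8% higher and 13.6% lower). The lowest were ACTA2 (-1.53 ± 0.56, adjusted p = 0.188), TAGLN (-1.46 ± 0.49, 0.179), DES (-1.05 ± 0.50, 0.251) and MYH11 (-1.01 ± 0.47, 0.246), and at an unadjusted p under 0.05 the test called 3572 genes. DESeq2 called none of the 10, among 937 genes called, and limma with voom sample weights called 6, all lower, among 9004 of the 16742 genes (4512 higher and 4492 lower). Without Y18M replicate 1 edgeR called 7 (ACTA2, MYH11, TAGLN, CNN1, DES, CALD1 and MYL9, all lower), among 5607 genes. Without Y18M replicate 2 it called none of the 10.

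In the 18-month group, Y18M replicate 2 was highest and replicate 1 lowest for 8 of the 10 genes, an order found for 38.4% of all genes tested. TPM2 was lowest in replicate 1 and highest in replicate 3, and SMTN ran the other way, highest in replicate 1. The highest 18-month library exceeded the lowest 5.54-fold for DES, 5.27-fold for ACTA2, 4.23-fold for CNN1 and 1.58-fold for TPM2. At 4 years this ratio was 1.12 to 1.60 over the 10 genes. Summed CPM of the 10 was 264.1, 943.5 and 537.6 in Y18M replicates 1, 2 and 3, the order of the fibroblast markers and the reverse of the germ cell markers given above. Mean levels were highest at 18 months for 5 of the 10 genes (ACTA2, MYH11, TAGLN, TPM2 and LMOD1), against 14.4% of all genes. Except for TAGLN, their 18-month and 4-year libraries overlapped. The order changed for TPM2 with RLE factors (0.021 at 4 years against 18 months). It also changed for LMOD1 with sample weights (-0.351 at 18 months against 6 months).

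Levels per transcript length were compared with the deposited FPKM values, as each gene's share of the FPKM summed over the 10. DES held 24.8% ± 6.08 (SD, n = 3) of the sum at 6 months, the largest share, then 5.33% ± 1.0 at 18 months and 5.57% ± 0.291 at 4 years. ACTA2 went from 10.7% ± 4.06 to 40.3% ± 7.15 and 30.1% ± 2.08, the largest share at both later ages. Each 18-month and 4-year library held more ACTA2 (28.8% to 46.9%) than any 6-month one (6.85% to 14.9%), Y18M replicate 1 included (32.7%).

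MYH11 had a larger share in every later library as well, from 0.996% to 1.78% at 6 months to 5.73% to 6.87% later. CALD1 went from 13.9% ± 3.14 to 3.21% ± 0.39 and 3.71% ± 0.0403. CNN1 had 13.9% ± 2.39, 6.56% ± 0.448 and 9.72% ± 1.11, and MYL9 18.3% ± 2.07, 10.5% ± 0.192 and 13.1% ± 0.253. These shares sum to the whole in each library, so a higher share of ACTA2 lowers the others. They were not tested.

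**Figure D3:**
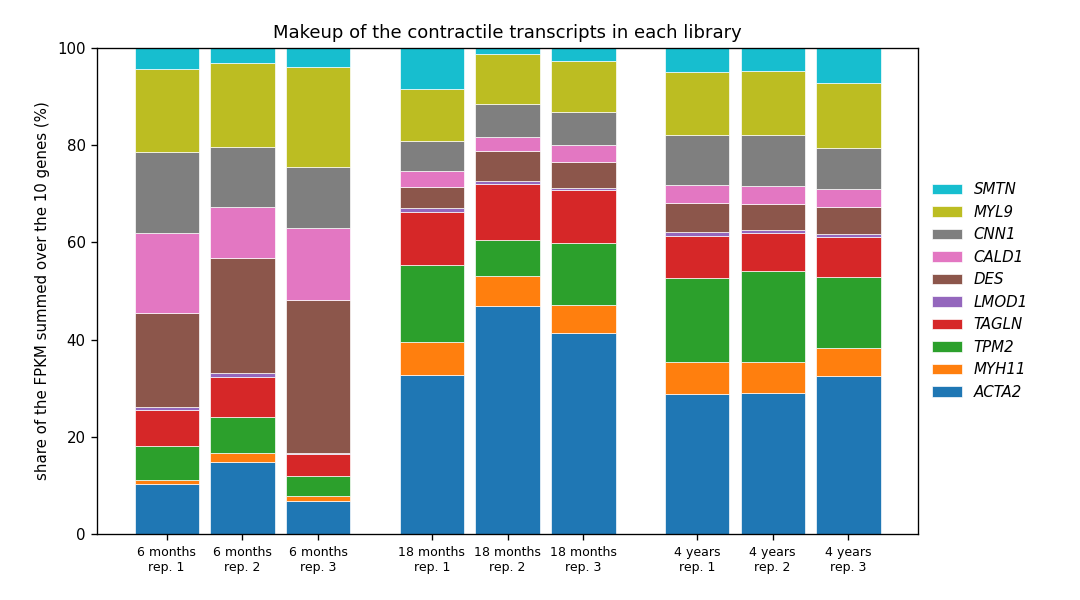
Stacked bars give each gene's share (%) of the FPKM summed over the 10 contractile genes, 1 bar per library. DES and CALD1 take mean shares of 24.8% and 13.9% at 6 months and 3.21% to 5.57% at the later ages, and ACTA2 takes 10.7% at 6 months, 40.3% at 18 months and 30.1% at 4 years.

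The FPKM summed over the 10 genes was 185.2, 238.4 and 157.0 at 6 months, 117.5, 487.8 and 273.8 at 18 months and 138.4, 124.2 and 144.0 at 4 years. By mean FPKM the order at 6 months was DES (47.2), MYL9 (35.1), CNN1 (26.7), CALD1 (26.2), ACTA2 (21.7), TAGLN (13.6), TPM2 (12.3), SMTN (7.10), MYH11 (2.56) and LMOD1 (1.10). Only MYL9 and CNN1, and SMTN and MYH11, had ranges that did not touch as neighbours in it. At 18 months ACTA2 (126.7) led TAGLN (32.8), MYL9 (30.5) and TPM2 (29.9), followed by CNN1 (19.6), MYH11 (18.1), DES (16.8), CALD1 (8.95), SMTN (7.99) and LMOD1 (1.70), and all neighbours but the last pair overlapped. At 4 years ACTA2 (40.9) was followed by TPM2 (22.8), MYL9 (17.8), CNN1 (13.1), TAGLN (11.2) and MYH11 (8.41), each apart from the next, and MYH11, SMTN (7.72) and DES (7.57) overlapped in turn.

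Several filament parts are encoded by more than 1 related gene, so 5 members were also set against a related gene of the same library. The partners were not all non-muscle genes, and the ratios to TPM1 and ACTG2 are not read as a contrast with non-muscle cells. Each log2 ratio of counts is free of library scaling but not of transcript length, and only its difference between ages is read. MYH11 over MYH9, the main non-muscle myosin heavy chain, was -4.69, -3.63 and -5.13 at 6 months, 0.96, -0.12 and 0.42 at 18 months and 1.34, 0.93 and 1.46 at 4 years. All later libraries were above all 6-month ones, by 4.90 and 5.73 in the means (exact permutation test over the 3 ages, 2-sided, adjusted p = 0.0187 over 7 ratios). MYH11 over MYH10, a second non-muscle heavy chain, went from a mean of -2.39 ± 0.83 to 1.70 ± 0.40 and 1.44 ± 0.20 (exact permutation, 0.0187).

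The ratio of ACTA2 to ACTB, cytoplasmic beta-actin, was -5.03 ± 0.78 (SD, n = 3), -1.95 ± 0.27 and -2.34 ± 0.18 at the 3 ages (exact permutation, adjusted p = 0.0187). In Y18M replicate 1, where ACTA2 itself was within the 6-month range, the ratio was -2.26, against -4.21 in the highest 6-month library. TPM2 over TPM1, alpha-tropomyosin, went from -4.83 ± 0.76 to -2.24 ± 0.38 and -1.77 ± 0.27 (0.0187, exact permutation). CNN1 over CNN3, the acidic calponin of non-muscle cells, went from -2.60 ± 0.46 to 0.04 ± 0.42 and 0.25 ± 0.18 (0.025, exact permutation), although CNN1 itself was lower at 4 years.

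For those 5 ratios no later library overlapped a 6-month one. Among single genes, 65.1% did not overlap between 6 and 18 months and 83% between 6 months and 4 years. The denominators MYH9, MYH10, ACTB, TPM1 and CNN3 were themselves lower without overlap at both later ages. TAGLN over TAGLN2, a relative of wider expression, was -1.23 ± 0.49, -0.57 ± 1.01 and -1.93 ± 0.51 and did not pass (exact permutation, adjusted p = 0.133; 0.0458 without Y18M replicate 1). ACTA2 over ACTG2, the enteric smooth muscle actin, was 4.65 ± 0.50, 5.39 ± 0.93 and 4.49 ± 0.42 (exact permutation, 0.268). The smallest p the design allows is 0.00357. CNN3 and TAGLN2 each stand on 2 identifiers, which were summed, and the actin and tropomyosin genes are similar enough that counting may have split shared reads between them.

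**Figure D4:**
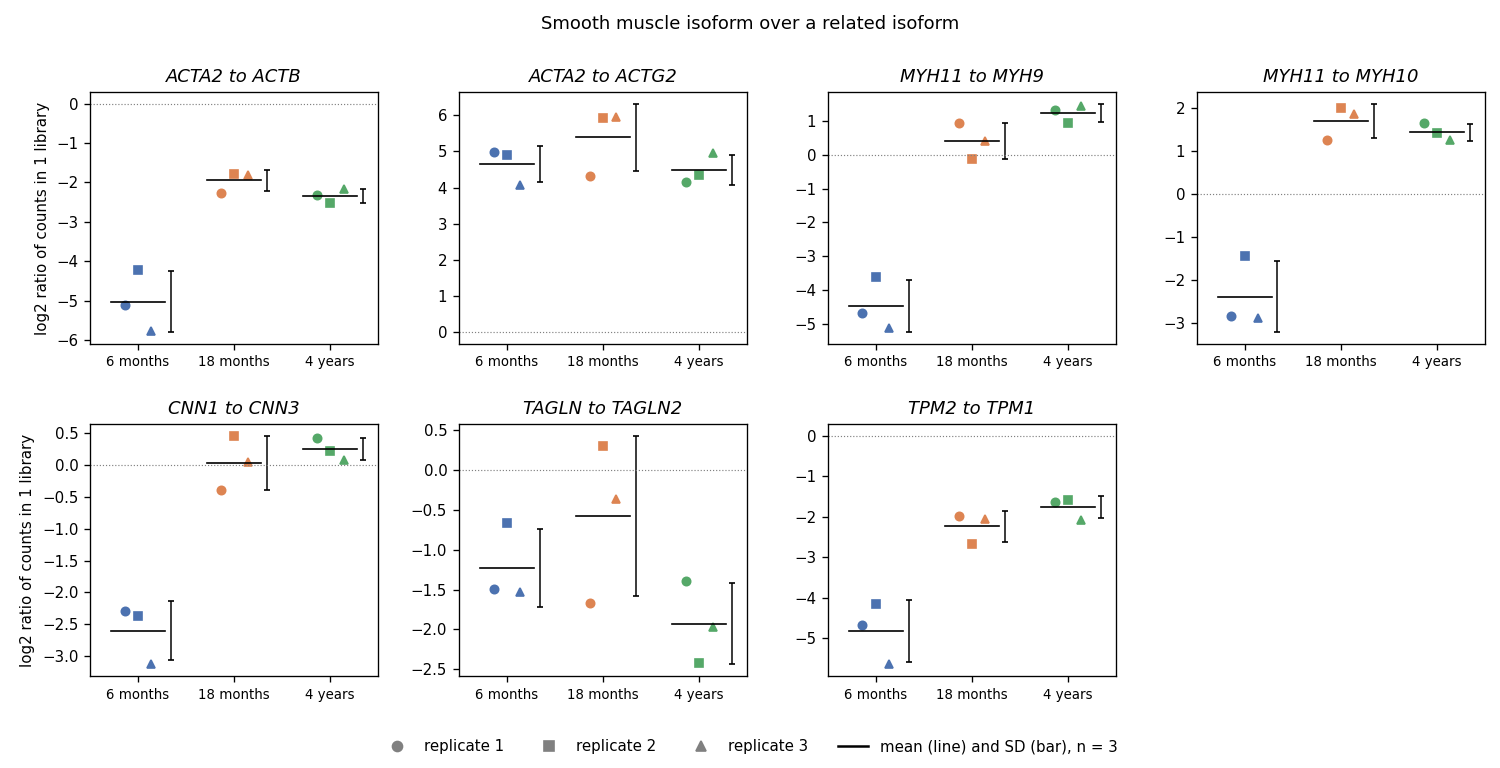
Log2 ratio of the counts of a smooth muscle gene to a related gene within each library, for 7 pairs; black lines are means and bars the SD of 3 libraries per age, and dotted lines mark equal counts. MYH11 to MYH9 has means of -4.48, 0.42 and 1.24, and 5 of the 7 pairs have every 18-month and 4-year library above every 6-month one.

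A list of 21 related filament genes held the other actins, myosins, tropomyosins and calponins, with the alpha-actinins ACTN1 and ACTN4, the filament-capping tropomodulins TMOD1 and TMOD3, TAGLN2 and SMTNL2. Of these, 3 were higher and 12 lower at 18 months (median log2 fold change -0.86), against 59.9% of all genes called, and 3 were higher and 14 lower at 4 years (-1.74), against 73.9%. The higher ones were ACTC1 and TMOD1 at both ages, ACTG2 at 18 months and ACTN1 at 4 years, the tropomodulin and actinin being named after their values were seen. CNN3 fell by 3.67 ± 0.31 (adjusted p = 6.31e-05) and 4.29 ± 0.32 (3.57e-05) at the 2 ages. TPM4, a tropomyosin of non-muscle cells, fell by 2.24 ± 0.31 at 18 months (0.000437) and stood at 0.125 of the 6-month level at 4 years (8.94e-05). MYH10 fell by 1.69 ± 0.26 (0.000727) and 2.33 ± 0.27 (0.000117), and TPM3 by 1.24 ± 0.20 (0.000935) and 1.74 ± 0.21 (0.000131). Of the other ratio partners, ACTB was at 1498 ± 36.8, 793.9 ± 496.5 and 384.2 ± 22.9 CPM and fell at 4 years (adjusted p = 0.00229; 0.0754 at 18 months). MYH9, at 440.4 ± 44.5, 100.9 ± 90.0 and 23.8 ± 4.52 CPM, and TPM1, at 463.3 ± 39.0, 160.2 ± 70.8 and 105.0 ± 3.75 CPM, fell at both ages (MYH9 0.0124 and 0.00042, TPM1 0.00238 and 0.000308). ACTC1, cardiac alpha-actin, rose by 3.25 ± 0.45 (0.00044) and 3.66 ± 0.45 (0.000159) from a mean of 0.13 CPM. ACTG2 rose at 18 months (1.24 ± 0.41, 0.0272) and was at 0.87 ± 0.41 at 4 years (0.0812), and TAGLN2 passed at neither age (0.915 and 0.57).

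Contraction is switched by myosin phosphorylation and calcium. Of 21 genes for it, 5 were higher and 9 lower at each later age (medians -0.41 and -0.09), a share near that of all genes called, 59.9% and 73.9%. PRKG1, the cGMP-dependent kinase that mediates relaxation, fell from 1075 CPM to 207.9 and 147.2 (-2.37 ± 0.20, adjusted p = 6.57e-05, and -2.87 ± 0.21, 3.52e-05). Its deposited FPKM, at means of 1988, 516.4 and 347.1 at the 3 ages, exceeded its CPM. MYLK by contrast had 218.2 CPM and 23.55 FPKM at 6 months. Whether the counts of this identifier cover the whole PRKG1 transcript was not tested. EDNRA, the endothelin receptor of smooth muscle, fell by 1.86 ± 0.31 (0.00102) and 3.06 ± 0.32 (8.63e-05). The angiotensin receptor AGTR1 fell by 2.74 ± 0.41 (0.000624) and 3.55 ± 0.43 (0.000141). MYLK, the light chain kinase, fell by 1.51 ± 0.28 (0.00166) and 2.56 ± 0.29 (0.000105), and CACNA1C, the L-type calcium channel, by 1.53 ± 0.28 (0.00178) and 2.51 ± 0.29 (0.000128). The CACNA1C fall was in counts only. Its deposited FPKM stayed level, at means of 2.48 ± 0.64 (SD), 2.22 ± 0.63 and 2.33 ± 0.64 at the 3 ages. The reason was not tested. MYLK stands on 2 identifiers, and the more highly counted was used.

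The oxytocin receptor OXTR went the other way. It was at 0.127, 0.0434 and 0.183 CPM at 6 months, 9.45, 1.85 and 5.71 at 18 months and 8.95, 5.22 and 5.82 at 4 years. It rose by 5.55 ± 0.75 at 18 months (adjusted p = 0.000397) and by 5.78 ± 0.76 at 4 years (0.0002). Within the 18-month group OXTR was lowest in replicate 2 and highest in replicate 1, the order of the germ cell markers and the reverse of 8 of the contractile genes.

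Serum response factor and myocardin drive most smooth muscle genes, with TGF-beta signalling upstream. Of 15 genes of this control, 1 was higher and 7 lower at 18 months (median -0.54), and 3 were higher and 10 lower at 4 years (-1.26). Over all genes, 59.9% were called at 18 months (27.1% lower) and 73.9% at 4 years (37.2% lower). The TGF-beta receptors TGFBR2 (-2.41 ± 0.32, adjusted p = 0.000351, and -2.58 ± 0.32, 0.000159) and TGFBR1 (-1.05 ± 0.17, 0.000843, and -1.26 ± 0.17, 0.000218) fell at both ages. TEAD1, a DNA-binding partner of YAP1, fell by 1.49 ± 0.30 (0.00253) and 1.78 ± 0.30 (0.000692), and the LIM protein CSRP2 by 1.06 ± 0.24 (0.00452) and 1.61 ± 0.24 (0.000376). YAP1 itself was at 0.65 ± 0.36 at 18 months (0.144) and rose by 1.42 ± 0.36 at 4 years (0.00617). In Y18M replicates 1, 2 and 3 it had 51.06, 17.24 and 25.19 CPM, the order of the germ cell markers. Its mean deposited FPKM was 13.17, 44.11 and 81.02 at the 3 ages, against 19.9, 31.16 and 53.39 CPM. KLF4, known as a repressor of contractile genes in cultured vascular smooth muscle and for its expression in round spermatids of the mouse, rose from 2.53 CPM to 24.1 and 51.0 (3.25 ± 0.62, 0.00205, and 4.33 ± 0.65, 0.000378). It stands on 2 identifiers and was highest at 18 months in replicate 1 (48.41 CPM, against 7.15 and 16.73). SRF was called at neither age, at means of 39.0, 42.8 and 39.5 CPM (adjusted p = 0.495 and 0.918). MYOCD, or myocardin, had 0.0423, 0.347 and 0.32 CPM at 6 months, 0.696, 2.63 and 0.454 at 18 months and 0.34, 0.206 and 0.831 at 4 years. Its 18-month libraries were above all 6-month ones, and it passed at neither age (2.40 ± 0.94, 0.0524, and 0.93 ± 0.95, 0.392). Of its relatives, MRTFB fell at both ages (-0.54 ± 0.16, 0.0183, and -0.45 ± 0.16, 0.031) and MRTFA at 4 years (-0.79 ± 0.31, 0.045; -0.05 ± 0.31, 0.888 at 18 months). In deposited FPKM, MRTFB stayed level, at means of 3.23, 3.07 and 3.15. YAP1 and these 4 genes were named after their values were seen.

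Dense plaques and caveolae anchor the filaments at the membrane. Of 21 measured genes of 22 listed, 1 was higher and 13 lower at 18 months (median -0.88), and 1 was higher and 16 lower at 4 years (-1.41). The shares called over all genes were 59.9% at 18 months (27.1% lower) and 73.9% at 4 years (37.2% lower). ITGB1, the beta-1 integrin, fell from 734.5 CPM to 192.0 and 163.6 (-1.94 ± 0.24, adjusted p = 0.000267, and -2.17 ± 0.24, 0.000107). PARVA, a plaque adaptor, fell by 2.64 ± 0.37 (0.000481) and 3.24 ± 0.38 (0.000133). Caveolin CAV1 (-1.52 ± 0.30, 0.00227, and -1.29 ± 0.29, 0.00355) and CAVIN1 (-1.65 ± 0.33, 0.00265, and -2.86 ± 0.35, 0.000146) were lower at both ages, as was PDLIM3, a Z-line and dense-body protein (-1.88 ± 0.45, 0.00662, and -3.63 ± 0.49, 0.000225).

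Other muscle and mural cells were read from their own markers. Of 10 measured pericyte and vascular smooth muscle genes, 8 were lower at 18 months and none higher (median -1.82), and 9 were lower and 1 higher at 4 years (-2.09). Against this, 59.9% of all genes were called at 18 months (27.1% lower) and 73.9% at 4 years (37.2% lower). The pericyte genes are given next. These genes summed to 287.5 to 368.1 CPM at 6 months, 70.8 to 101.0 at 18 months and 84.8 to 104.5 at 4 years. EBF1, the 1 gene called higher, had means of 22.1, 27.5 and 53.8 CPM, against mean sums of 320.8, 83.5 and 92.2. The sum thus understates the fall of the other genes. RGS5, a pericyte regulator of G-protein signalling, fell by 2.53 ± 0.32 (adjusted p = 0.000269) and 2.33 ± 0.31 (0.000226). CSPG4, or NG2, fell by 3.20 ± 0.44 (0.000432) and 3.72 ± 0.45 (0.00015), and PDGFRB, the receptor of mural and other mesenchymal cells, by 2.78 ± 0.56 (0.00263) and 4.33 ± 0.60 (0.000262). COX4I2 (-1.85 ± 0.37, 0.00259, and -1.84 ± 0.37, 0.00181) and NOTCH3 (-2.30 ± 0.49, 0.00359, and -3.14 ± 0.51, 0.000573) were lower at both ages too. EBF1 went the other way, at 0.31 ± 0.45 at 18 months (0.568) and 1.28 ± 0.45 at 4 years (0.0287). In Y18M replicates 1, 2 and 3 it had 50.2, 11.36 and 20.81 CPM, the order of the germ cell markers.

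Of 14 skeletal muscle markers, 7 were too low to test. These were MYOD1, MYOG, MYF6, MYH1, MYH2, ACTA1 and TNNI2, at 0 to 17 counts in each library and none of them at 0 in all. The 7 tested summed to 39.8 to 62.2 CPM at 6 months, 65.0 to 106.5 at 18 months and 126.7 to 131.7 at 4 years. Of these 7, 2 were higher at 18 months and 3 higher and 1 lower at 4 years, against 59.9% and 73.9% of all genes called. TTN, titin, rose by 2.50 ± 0.46 (adjusted p = 0.00164) and 3.66 ± 0.48 (0.000198), on the most highly counted of 5 identifiers, and NEB, nebulin, by 1.81 ± 0.50 (0.012) and 2.63 ± 0.51 (0.00146). Mean TTN went from 6.67 CPM at 6 months to 84.4 at 4 years and NEB from 4.19 to 26.0, while TNNT1 went from 40.0 to 14.5. The genes in the sum thus did not move together. In Y18M replicates 1, 2 and 3, TTN (60.3, 23.3 and 29.6 CPM) and NEB (27.2, 7.70 and 9.175) had the order of the germ cell markers. TNNT3 rose (1.80 ± 0.46, 0.00641) and TNNT1 fell (-1.47 ± 0.35, 0.00479) at 4 years. MYH7 was at 1.42 ± 0.61 at 18 months (0.0706).

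None of these 6 lists had a gene called between 4 years and 18 months. Their medians in that comparison were -0.51 for the filament isoforms, -0.16 for phosphorylation and calcium, -0.26 for serum response factor control, -0.61 for dense plaques, -0.52 for pericytes and 0.33 for skeletal muscle, against -0.03 over all genes. MYH9 had the lowest value of the isoforms (-2.09 ± 0.59, adjusted p = 0.174). FHL2, a LIM cofactor of serum response factor, was lowest of all 6 lists (-2.68 ± 0.70, 0.174). It had 17.0 to 24.04 CPM at 6 months, 4.41, 46.83 and 17.05 in Y18M replicates 1, 2 and 3 and 2.97 to 4.39 at 4 years.

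MicroRNAs repress messages that pair with their seed, bases 2 to 8. In the mouse, miR-143 and miR-145 come from 1 transcript that is a target of serum response factor and favour the contractile state of smooth muscle, while miR-1 and miR-133 are known best from striated muscle and miR-221 and miR-222 from proliferating vascular smooth muscle of the rat. The mature sequences below are those deposited in the miRNA table, written 5′ to 3′ with T for U and the seed in capitals. They are the bta entries of the miRNAs just named, with bta-miR-206 shown for its seed, and 7 of the 8 rose at both later ages, bta-miR-206 being too low to test. miR-1 and miR-206 share a seed, as do miR-133a and miR-133b, and miR-221 and miR-222.
bta-miR-143: tGAGATGAagcactgtagctcg
bta-miR-145: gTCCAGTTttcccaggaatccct
bta-miR-1: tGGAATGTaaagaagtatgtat
bta-miR-206: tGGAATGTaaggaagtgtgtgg
bta-miR-133a: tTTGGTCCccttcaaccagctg
bta-miR-133b: tTTGGTCCccttcaaccagcta
bta-miR-221: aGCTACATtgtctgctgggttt
bta-miR-222: aGCTACATctggctactgggt

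The small RNA libraries held 4.25 to 9.68 M miRNA counts, and 39 entries belonged to the 14 muscle-associated miRNAs listed, 35 of them tested among 881. At 18 months 16 were higher and 4 lower than at 6 months, against 51.9% of all miRNAs called (28.9% higher, 22.9% lower). At 4 years 22 were higher and 7 lower, against 65.5% (35.9% higher, 29.6% lower). Medians were 0.48 and 0.84, against 0.12 and 0.09 over all miRNAs tested. Entries of 1 family can differ only at their ends and are not independent of each other.

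bta-miR-143 had 76670, 73390 and 47010 CPM at 6 months, 99910, 86770 and 108900 at 18 months and 157500, 144700 and 131800 at 4 years. The ages did not overlap. It rose by 0.58 ± 0.18 at 18 months (adjusted p = 0.0239) and by 1.14 ± 0.19 at 4 years (0.000511). Its partner bta-miR-145 had 3597, 4009 and 2755 CPM, then 6225, 5384 and 6926, then 5452, 5426 and 7629. All later libraries were above those of 6 months, by 0.84 ± 0.20 at 18 months (0.00598) and 0.84 ± 0.20 at 4 years (0.00421).

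bta-miR-1 stood at 52.7, 121.6 and 31.9 CPM at 6 months, at 327.9, 279.8 and 449.0 at 18 months and at 345.8, 321.6 and 312.2 at 4 years. Neither later age overlapped the 6-month libraries. The rise was 2.36 ± 0.42 (adjusted p = 0.00162) and 2.25 ± 0.42 (0.00122). bta-miR-133a rose from 5.29 ± 3.08 CPM to 43.2 ± 14.9 and 32.0 ± 6.98 (log2 3.01 ± 0.42, 0.000522, and 2.57 ± 0.42, 0.000497), and bta-miR-133b from 0.902 ± 0.214 to 5.11 ± 1.81 and 5.08 ± 1.43 (2.47 ± 0.41, 0.00111, and 2.46 ± 0.40, 0.000526). bta-miR-206, with 23 counts in all, was too low to test.

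bta-miR-221 went from 15.0 ± 5.60 CPM to 50.2 ± 7.17 and 51.4 ± 10.8, and bta-miR-222 from 17.8 ± 4.45 to 48.5 ± 22.1 and 48.1 ± 10.1, and both rose at both ages (miR-221 adjusted p = 0.00162 and 0.000809, miR-222 0.00812 and 0.00596). Entries of miR-199a and miR-214, which in the mouse share a transcript and are known from mesenchymal cells, fell. bta-miR-199a-5p went from 62470 ± 9142 CPM to 40500 ± 8572 and 27600 ± 3478 (log2 -0.63 ± 0.18, adjusted p = 0.0182, and -1.18 ± 0.19, 0.00043). bta-miR-199a-3p fell by 1.08 ± 0.22 (0.0035) and 1.65 ± 0.23 (0.000207), and bta-miR-214 by 0.70 ± 0.23 (0.0283) and 1.29 ± 0.23 (0.000951). bta-miR-29b (0.86, 0.00515, and 1.26, 0.000406) and bta-miR-24-3p (0.62, 0.00529, and 0.51, 0.00929) rose, bta-miR-24 rose (0.51, 0.0451) and bta-miR-26a fell (-0.72, 0.00403) at 4 years. bta-miR-21-5p (0.338 and 0.085) and bta-miR-21-3p (0.382 and 0.277) passed at neither age.

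Of the 19 tested entries without the bta prefix, 7 were higher at both ages, which are miR-1-y (2.64 and 2.59), miR-221-z (2.75 and 2.27), miR-221-x (1.22 and 1.55), miR-222-y (1.14 and 1.17), miR-21-x (0.89 and 1.62), miR-221-y (0.81 and 0.82) and miR-145-x (0.80 and 0.94). Passing at 4 years and not at 18 months were miR-143-y (1.04), miR-145-y (0.84), miR-21-z (1.67), miR-24-x (0.65) and miR-24-z (0.59). Lower were miR-214-y at both ages (-1.35 and -2.05) and miR-214-x (-1.61) and miR-214-z (-1.65) at 4 years. Those not called were miR-143-x (-0.01 and 0.42), miR-24-y (0.00 and 0.12), miR-143-z (0.07 and 1.04) and miR-21-y (0.40 and -0.05). Between 4 years and 18 months, miR-214-x (-1.04, adjusted p = 0.0286) and miR-214-z (-1.02, 0.0374) were the 2 calls, against 9.53% of all miRNAs called (1.02% higher and 8.51% lower). The number was 9 without Y18M replicate 1, 1 without Y18M replicate 3, 3 without Y6M replicate 3 and 0 without Y18M replicate 2 or any 1 of the Y4Y libraries.

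**Figure D5:**
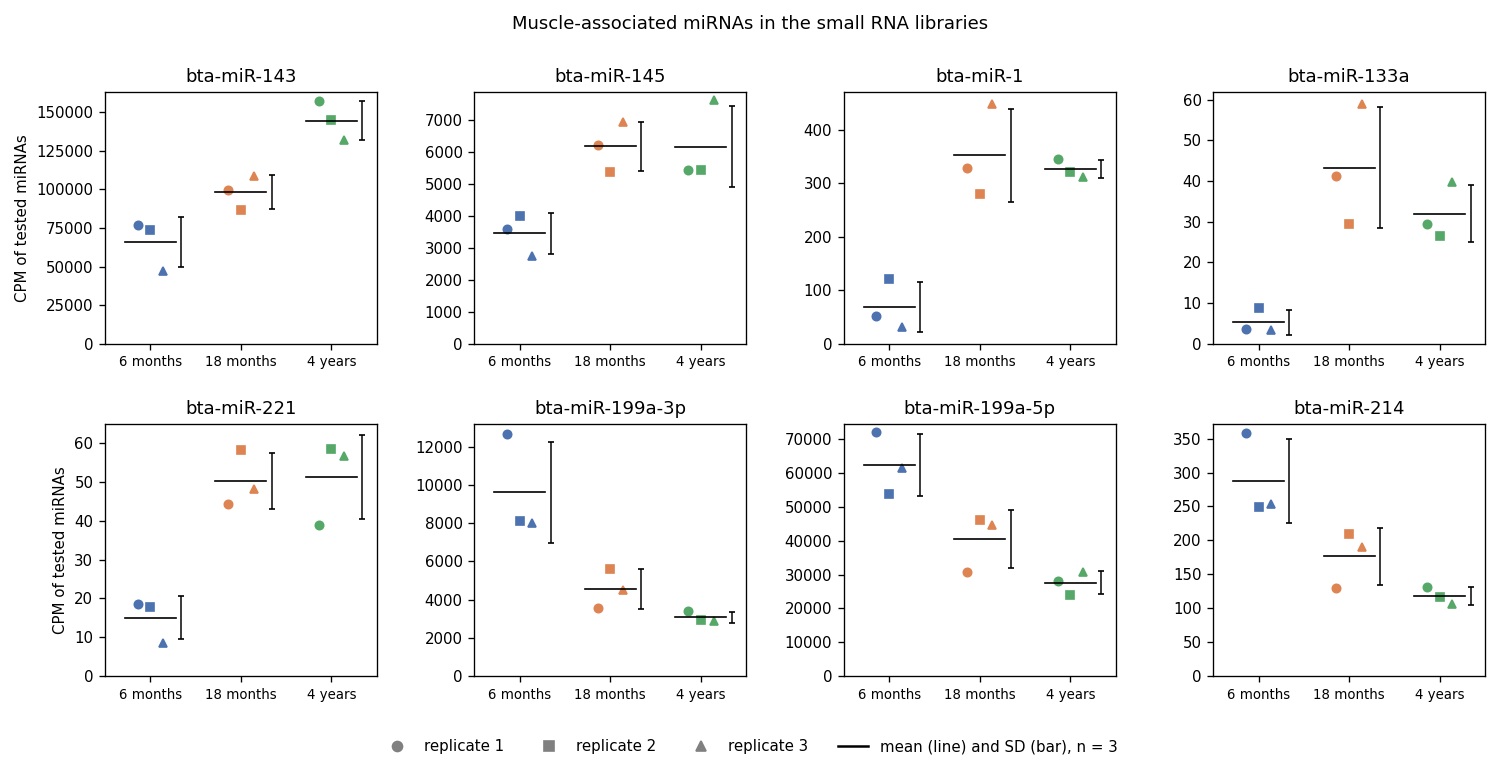
CPM of 8 muscle-associated miRNAs in each small RNA library; symbols mark the replicate, black lines the mean and bars the SD of 3 libraries per age. bta-miR-1 and bta-miR-133a lie higher in every 18-month and 4-year library than in any 6-month one (means 68.7, 352.2 and 326.5 CPM for bta-miR-1), and bta-miR-199a-5p falls from 62470 to 27600 CPM.

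Circular RNAs of the contractile genes were few. The circRNA table held 23 of them among 73679, with 126 of 1563273 back-splice reads, from MYH11 (14), CALD1 (5), TPM2 (2), ACTA2 (1) and DES (1). The MYH11 circles had 104 reads, with 0, 5 and 2 at 6 months, 18, 38 and 14 at 18 months and 7, 13 and 7 at 4 years. The 18-month libraries were above all others. Of these reads, 54 came from 1 circle of annotated exons on the minus strand of chromosome 25, from 14180936 to 14193014 as the table gives it, with a spliced length of 503 bases, and 25 of them lay in Y18M replicate 2. None of the 23 had enough reads to be tested, and the reads summed per gene were not tested. Among circRNAs tested, 5.26% were called at 18 months and 21% at 4 years, both against 6 months.

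In the authors' deposited table for 6 and 18 months, 5 of the 10 genes are listed, MYH11 (log2 2.82), ACTA2 (2.54), TPM2 (1.28), CALD1 (-1.55) and DES (-1.49). They are the 5 genes called here. The authors' deposited table for 6 months and 4 years gives log2 ratios of the 6-month over the 4-year mean of 2.64 for DES, 2.38 for CALD1, 1.03 for CNN1 and -1.72 for MYH11. MYL9 and TPM2, called here, are not among its rows, whose threshold may differ from the one used here. Mean FPKM at 6 months and 4 years was 35.07 and 17.83 for MYL9 and 12.27 and 22.78 for TPM2. The authors' deposited table for 18 months and 4 years lists 0 of the 10.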

How the data were processed

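Gene and circRNA values came from 9 ribosomal RNA-depleted testis libraries and miRNA values from 9 small RNA libraries. For each gene and library the authors deposited an estimated count and an FPKM value (per the file headers); 3137 genes have a count that is not whole, which was rounded. The deposited circRNA and miRNA tables hold a count of back-splice reads and of miRNA reads, per the file headers. The authors' deposited comparison tables hold a log2 ratio of group mean FPKM and an FDR (a p value adjusted by the authors). Tools named in the submitters' processing notes, without roles, are StringTie 1.3.4, HISAT2 2.1.0 and fastp 0.18.0, with build UMD3.1. Which program counted, and whether it used strand, is not given in the sources used here, so overlapping genes may share reads.

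Counts were filtered with filterByExpr, scaled by TMM and tested by quasi-likelihood F-tests (edgeR 4.0.16 under R 4.3.3), with all 3 ages in each fit and 6 residual degrees of freedom. An adjusted p (Benjamini-Hochberg over all features tested) under 0.05 made a call, and CPM are given after TMM scaling. Where a symbol has several identifiers, the most highly counted was used, except in the ratios, where they were summed. Ratios used counts plus 0.5 and an exact permutation test that enumerated the 280 distinct partitions of the libraries into groups of 3, adjusted over 7 ratios. The procedure was tested on simulated data. Alternatives were RLE factors, library size alone, other filters, DESeq2 1.42.0, limma 3.58.1 voom with sample weights, a replicate block, a pseudocount of 1 in the ratios and leaving out each library. Same-numbered libraries of different ages come from different animals and their deviations correlated at -0.106 to 0.094, so numbers were not taken to pair them.

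The members, the lists and the rule for named genes were chosen with earlier results of these data known. All 10 members are named in every comparison, with up to 4 genes of smallest p per further list, both genes of each ratio and each tested miRNA of the list. Not all genes that this rule names are printed for the markers of other cell types and for 4 years against 18 months, and 1 gene of the dense plaque list is not reported here.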

Additional observations from a re-analysis of the deposited data

How the results depend on the processing

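RLE factors, other filters on low counts, DESeq2 and the replicate block also called 5 members at 18 months (3 higher, 2 lower) and 6 at 4 years (2 higher, 4 lower) against 6 months, and library size alone gave 5 and 5. Sample weights gave 8 members at 18 months (4 higher, 4 lower), among 13263 of 16742 genes called, and 6 at 4 years against 18 months (all lower), where edgeR gave 0. Genes called between 4 years and 18 months numbered 1 in edgeR, 937 with DESeq2 and 9004 with sample weights, and leaving out 1 library gave 0 to 5607, the highest without Y18M replicate 1. Leaving out 1 library gave 4 to 7 members at 18 months, 3 to 6 at 4 years (3 without Y6M replicate 1) and 0 to 7 for 4 years against 18 months (7 without Y18M replicate 1). Of 270 member values with 1 library left out, 16 lost a call, 10 gained one and 12 changed sign, none of these 12 called.

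The values that changed sign were uncalled in TMM-scaled edgeR and in the fit where the sign changed. SMTN at 4 years against 6 months was 0.016 with RLE factors and with DESeq2 and 0.141 with library size alone, and at 18 months it was 0.222 with library size alone and -0.403 to 0.126 with 1 library left out. For 4 years against 18 months, SMTN was 0.059 and TPM2 0.021 with RLE factors and with DESeq2, and SMTN was 0.02 with the replicate block. With 1 library left out, SMTN was -0.198 to 0.252, TPM2 -0.247 to 0.058, CNN1 -0.863 to 0.086 and LMOD1 -0.967 to 0.088 in that comparison. LMOD1 at 18 months against 6 months was -0.351 with sample weights and -0.441 to 0.77 with 1 library left out, and at 4 years it was -0.823 to 0.086. The cause was not tested.

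The replicate block changed no member call. For the ratios it permuted ages within replicate numbers, which allows a smallest p of 0.0278, and the adjusted p rose to 0.0972 for ACTA2 to ACTB (18 minus 6 months 3.079), MYH11 to MYH9 (4.901), MYH11 to MYH10 (4.092) and TPM2 to TPM1 (2.592) and to 0.117 for CNN1 to CNN3 (2.635). TAGLN to TAGLN2 was 0.215 to 1.204 with 1 library left out, passing (0.0458) without Y18M replicate 1. The muscle miRNA calls between 4 years and 18 months numbered 0 with the block and 0 to 9 with 1 library left out. Depth limited the circRNAs, with 126 reads over 23 of them. For LMOD1 the libraries of 1 age differed up to 3.72-fold at 41 to 263 counts.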
